A study of Arabidopsis thaliana with 22 samples.

Results

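Among the leaf transcripts of these Arabidopsis plants, 13 genes were selected on their measured levels because they were low in mock-treated leaves of both genotypes that carry sal1-8 and not in the others. A gene was taken where a probe set with a single gene in the probe annotation had a highest group mean of 4 or more on the log2 scale, and where the mock means of sal1-8 and of ost1-2 sal1-8 were each 1.5 or more below the mock mean of wild type. All 6 mock arrays of these 2 genotypes had to lie below every mock array of ost1-2 and of wild type, the ost1-2 mock mean had to lie within 0.5 of the wild type mock mean, and the wild type mean after ABA within 0.75 of it. Of 38408 probe sets, 16722 carry a single gene and 10716 of these reach the level of 4. Both mock means were 1.5 or more lower for 43 of them, the arrays separated for 34, ost1-2 stayed near wild type for 16, and wild type stayed near its mock level after ABA for 13. AT2G25510 was to be left out by name and was not among them.

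SAL1 is a phosphatase of chloroplasts and mitochondria that degrades the phosphonucleotide PAP. When SAL1 is lost, or oxidized under high light or drought, PAP accumulates, moves to the nucleus and inhibits exoribonucleases there, which changes the levels of many nuclear transcripts and is known as chloroplast retrograde signalling. OST1 is the protein kinase that carries the signal of abscisic acid (ABA), the drought hormone, in guard cells.

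The plants were ost1-2 sal1-8, sal1-8 (called alx8 in the sample labels), ost1-2 and wild type, each sprayed with 20 µM ABA or with a mock solution at an age of 30 days. The sal1-8 mutant was in the Col-0 background and ost1-2 in Ler, the double mutant came from the F2 of their cross and carries a mixture of both, and the wild type was an F1 hybrid from crossing them. Each comparison between genotypes therefore also compares ecotypes, and the part of sal1-8 and the part of the ecotype in a difference cannot be told apart. Each sample was a single leaf, taken after 45 min of treatment by the study's methods and by the treatment named for each ABA sample, while the treatment protocol in the same labels gives 2 h. Every group had 3 arrays, except ost1-2 mock and ost1-2 ABA with 2 each, 22 in all. Single arrays are named by a letter for the run of sample numbers they belong to.

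The values are log2 fluorescence intensities of Affymetrix Arabidopsis Gene 1.0 ST arrays, so a difference of 1 is a doubling. The median of the named probe sets lay between 4.47 and 4.93 over the arrays, with 1 ost1-2 sal1-8 ABA array farthest from the rest, 0.302 above the mean of the array medians. These medians went with genotype. Every sal1-8 and ost1-2 sal1-8 array lay above that mean, by 0.0303 or more, and every ost1-2 and wild type array below it, at -0.16 to -0.0612. The cause of this offset was not tested. Neither SAL1 nor OST1 has a probe set named in the annotation, so the mutated genes were not checked here. Of the cell type lists, a single guard cell gene and a single mesophyll gene were tested, so the labelled tissue could be checked against little. In whole leaves, fewer cells of a type and less RNA per cell cannot be told apart.

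All 13 genes are annotated as protein coding. The best characterised is AT3G48420, the chloroplast enzyme CbbY, which removes a misfire product of Rubisco that would otherwise inhibit it. GLR2.7 (AT2G29120) belongs to the glutamate receptor-like family of cation channels. AT5G42250 is a zinc-binding alcohol dehydrogenase, AT1G57770 a flavin-binding oxidoreductase, AT1G74300 an alpha/beta-hydrolase and AT1G03210 a protein like the PhzF enzymes of bacterial phenazine synthesis. AT1G23130 belongs to the family of Bet v 1-like lipid-binding proteins, AT5G36240 has zinc knuckles, and AT1G49470 is a membrane protein of unknown function. No role is given here for AT5G39640, AT3G48640, AT5G44568 and AT1G10380.

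In mock-treated leaves the deepest difference was that of AT5G39640. Its log2 values were 2.69, 3.44 and 3.07 in sal1-8 and 2.87, 3.21 and 2.85 in ost1-2 sal1-8, against 7.86 and 7.78 in ost1-2 and 7.98, 7.12 and 8.09 in wild type. The mean of its 2 differences from wild type was -4.71 on the log2 scale. Its levels in the sal1-8 and ost1-2 sal1-8 arrays lay around 3.02, the lowest level at which probe sets entered the tests, and whether they stood above background was not tested, so no fold is given for this gene.

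AT3G48640 came next, with 4.83, 5.55 and 4.75 in sal1-8 and 4.94, 5.57 and 4.88 in ost1-2 sal1-8, against 8.21 and 8.29 in ost1-2 and 8.78, 7.87 and 8.51 in wild type. This is 9.80-fold lower, on the mean of the 2 differences, and the arrays of the 2 sal1-8 genotypes overlapped each other. CbbY (AT3G48420) had 8.21, 8.52 and 8.21 in sal1-8 and 9.02, 8.78 and 8.29 in ost1-2 sal1-8, against 11.19 and 11.26 in ost1-2 and 10.76, 11.12 and 11.09 in wild type. It was 5.61-fold lower, and the arrays of the 2 sal1-8 genotypes overlapped for it as well.

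The lipid-binding family gene AT1G23130 had 6.38, 7.20 and 6.46 in sal1-8 and 6.50, 6.23 and 5.84 in ost1-2 sal1-8, against 8.85 and 8.30 in ost1-2 and 8.98, 9.06 and 7.66 in wild type. A single wild type array was more than 1 log2 unit below the other 2, and it still lay above all sal1-8 and ost1-2 sal1-8 arrays. The difference of this gene was 4.38-fold. The zinc knuckle gene AT5G36240 had 1.62, 1.93 and 1.46 in sal1-8 and 1.56, 1.96 and 2.16 in ost1-2 sal1-8, against 3.94 and 4.26 in ost1-2 and 4.28, 3.46 and 3.28 in wild type. All of its sal1-8 and ost1-2 sal1-8 values lay under 3.02, so they were not shown to stand above background, and its difference of -1.89 is given with no fold.

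**Figure D1:**
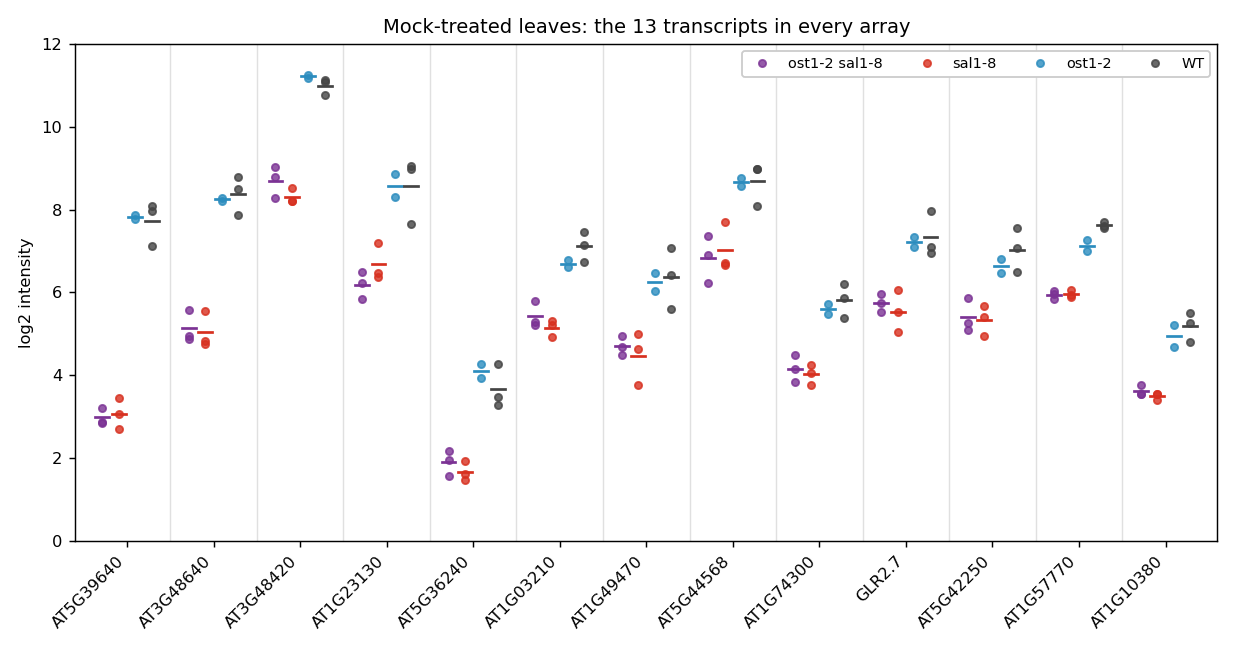
Log2 intensity of each of the 13 transcripts in mock-treated leaves, 1 point per array and a bar at the group mean, for ost1-2 sal1-8, sal1-8, ost1-2 and wild type from left to right. By the choice of the genes, the 6 arrays of the first 2 genotypes lie below the 5 of the other 2, and the gap is widest for AT5G39640.

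The remaining 8 genes differed by 3.53-fold at most, the smallest being AT1G10380. The PhzF-like gene AT1G03210 had 4.93, 5.21 and 5.30 in sal1-8 and 5.22, 5.29 and 5.80 in ost1-2 sal1-8, against 6.61 and 6.78 in ost1-2 and 7.45, 6.74 and 7.14 in wild type. The oxidoreductase gene AT1G57770 had 5.90, 5.92 and 6.06 in sal1-8 and 5.95, 6.04 and 5.85 in ost1-2 sal1-8, against 7.26 and 6.99 in ost1-2 and 7.56, 7.69 and 7.60 in wild type. For these 2 genes the ost1-2 mean minus the wild type mean was -0.42 and -0.49, and for AT1G57770 the arrays of ost1-2 and wild type did not overlap. For CbbY they did not overlap either, with ost1-2 above wild type. How many of all transcripts separated in either way was not counted.

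The alpha/beta-hydrolase gene AT1G74300 had 3.77, 4.04 and 4.25 in sal1-8 and 4.49, 4.15 and 3.83 in ost1-2 sal1-8, against 5.49 and 5.71 in ost1-2 and 6.2, 5.86 and 5.37 in wild type. The alcohol dehydrogenase gene AT5G42250 had 5.40, 5.66 and 4.94 in sal1-8 and 5.86, 5.27 and 5.09 in ost1-2 sal1-8, against 6.48 and 6.81 in ost1-2 and 7.55, 7.07 and 6.48 in wild type. The membrane protein gene AT1G49470 had 3.75, 4.64 and 5.0 in sal1-8 and 4.49, 4.96 and 4.69 in ost1-2 sal1-8, against 6.48 and 6.04 in ost1-2 and 6.41, 7.07 and 5.61 in wild type. AT1G49470 was the most variable of these in wild type, with an SD of 0.73 (n = 3), and its lowest wild type array was 0.61 above its highest sal1-8 array.

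AT5G44568 had 6.70, 7.70 and 6.66 in sal1-8 and 6.91, 7.37 and 6.22 in ost1-2 sal1-8, against 8.56 and 8.76 in ost1-2 and 8.99, 8.08 and 8.98 in wild type. Its highest sal1-8 array came within 0.38 of its lowest wild type array, so this separation was narrow. GLR2.7 had 5.03, 6.05 and 5.53 in sal1-8 and 5.74, 5.95 and 5.53 in ost1-2 sal1-8, against 7.33 and 7.11 in ost1-2 and 7.97, 7.10 and 6.95 in wild type. AT1G10380 had 3.40, 3.55 and 3.54 in sal1-8 and 3.53, 3.54 and 3.77 in ost1-2 sal1-8, against 4.67 and 5.21 in ost1-2 and 4.79, 5.26 and 5.51 in wild type. These last 2 genes and AT5G42250 were the nearest to the threshold of 1.5, with mock differences from wild type of -1.80 and -1.60 for GLR2.7, -1.70 and -1.57 for AT1G10380 and -1.70 and -1.63 for AT5G42250, in sal1-8 and in ost1-2 sal1-8. Just outside lay AT5G46260 with -1.498 and -1.59, AT4G16146 with -1.47 and -2.35, and AT5G26690 with -1.60 and -1.46.

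The mock means of ost1-2 sal1-8 and sal1-8 lay within 0.5 of each other for each of the 13 genes. The ost1-2 sal1-8 mock mean minus the sal1-8 mock mean ran from -0.49 for AT1G23130 to 0.38 for CbbY, with a median of 0.12 over the 13 genes. The arrays of the 2 genotypes overlapped for every one of them, and for how many of all transcripts they did was not counted. Relative to wild type mock, the 13 genes averaged -2.21 ± 0.26 in the sal1-8 leaves and -2.13 ± 0.14 in the double mutant (SD, n = 3 arrays each), and -0.11 ± 0.02 in ost1-2 (SD, n = 2), all after mock. The mock arrays chose the genes, so these levels describe them and were not tested.

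Whether the genes were also low after ABA was asked in the arrays of the 3 mutant genotypes after ABA. These entered the choice only through the level of 4, which all 13 genes also reached in the mock and wild type ABA groups alone. A transcript was called where limma gave an adjusted p under 0.05 (Benjamini-Hochberg over all probe sets tested, 13143 of them with a single gene) and a fold change above 1.5. Between sal1-8 ABA and ost1-2 ABA, 8 of the 13 genes were called lower and 0 higher, where 10.7% of all transcripts tested were called lower. Every sal1-8 array lay below both ost1-2 arrays for 10 of the 13, as it did for 33.1% of all transcripts. The median difference of the 13 was -1.25, and that of all transcripts -0.09. AT5G36240 reached the level of 4 only in ost1-2, with means of 4.226 after ABA and 4.101 after mock, against 3.79 and 3.67 in wild type, and so passed through the genotype it was tested against. Without it, 7 of 12 genes were called lower, with a median of -1.24.

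Between ost1-2 sal1-8 ABA and ost1-2 ABA, 10 of the 13 were called lower and 0 higher, where 4.14% of all transcripts were called lower. Every ost1-2 sal1-8 array lay below both ost1-2 arrays for 13 of 13, as for 18.8% of all transcripts, and the median differences were -1.40 for the 13 and 0.04 for all. Without AT5G36240 it was 9 of 12, with a median of -1.39. Both comparisons use the same 2 ost1-2 ABA arrays and are therefore not independent of each other.

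The contrast after ABA was again deepest for AT5G39640, with 3.01, 3.04 and 2.72 in sal1-8 and 2.80, 3.11 and 3.74 in ost1-2 sal1-8, against 7.17 and 7.51 in ost1-2 and 7.40, 8.13 and 7.65 in wild type. The difference from ost1-2 was -4.41 in sal1-8 (SE 0.30, adjusted p = 7.03e-09, limma) and -4.12 in ost1-2 sal1-8 (SE 0.30, adjusted p = 1.67e-08), with the levels of both again around 3.02. CbbY (AT3G48420) had 8.28, 7.81 and 8.60 in sal1-8 and 8.71, 8.61 and 8.83 in ost1-2 sal1-8, against 11.07 and 10.96 in ost1-2 and 10.58, 11.04 and 10.60 in wild type. It was 6.89-fold lower in sal1-8 than in ost1-2 (log2 -2.79, adjusted p = 6.81e-08, limma) and 4.93-fold lower in ost1-2 sal1-8 (log2 -2.30, adjusted p = 7.93e-07), and no array of these 2 genotypes came near those of the others.

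AT1G23130 had 6.83, 6.24 and 6.79 in sal1-8 and 5.64, 6.35 and 6.11 in ost1-2 sal1-8, against 8.41 and 8.22 in ost1-2 and 8.66, 8.85 and 8.57 in wild type. AT1G74300 had 3.80, 4.34 and 4.61 in sal1-8 and 3.72, 4.62 and 4.22 in ost1-2 sal1-8, against 5.59 and 5.77 in ost1-2 and 5.71, 5.79 and 5.79 in wild type. Both genes were separated in every array and called in both comparisons, at log2 -1.69 and -2.28 for AT1G23130 and -1.43 and -1.49 for AT1G74300, in sal1-8 and in ost1-2 sal1-8. Their adjusted p-values by limma lay between 0.000161 and 0.00185. AT5G36240 had 1.72, 1.94 and 1.80 in sal1-8 and 1.70, 1.79 and 2.05 in ost1-2 sal1-8, against 4.68 and 3.77 in ost1-2 and 3.47, 4.46 and 3.44 in wild type. Its measured differences from ost1-2, -2.41 in sal1-8 and -2.38 in ost1-2 sal1-8, have a low side that was not shown to stand above background.

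AT1G10380 had 4.13, 3.64 and 3.85 in sal1-8 and 3.68, 4.41 and 4.18 in ost1-2 sal1-8, against 6.71 and 6.15 in ost1-2 and 4.3, 5.17 and 5.07 in wild type. It was 5.89-fold lower in sal1-8 than in ost1-2 (log2 -2.56, adjusted p = 2.14e-06, limma) and 5.06-fold lower in ost1-2 sal1-8 (log2 -2.34, adjusted p = 7.23e-06). Against wild type ABA the gap was smaller, -0.98 in sal1-8 and -0.76 in ost1-2 sal1-8, and 1 ost1-2 sal1-8 array lay above the lowest wild type array. Here the ost1-2 ABA arrays were high, above all other arrays of this gene.

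**Figure D2:**
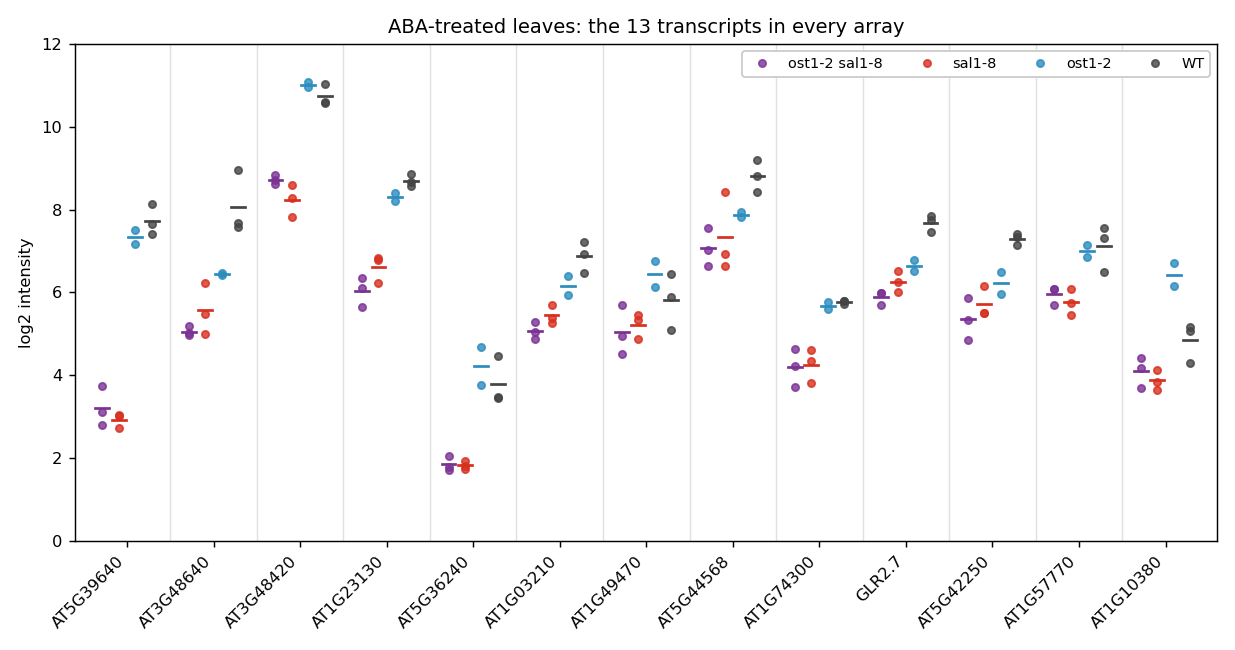
Log2 intensity of each of the 13 transcripts in ABA-treated leaves, 1 point per array and a bar at the group mean, for ost1-2 sal1-8, sal1-8, ost1-2 and wild type from left to right. AT5G39640 and CbbY (AT3G48420) keep wide gaps, while for AT5G44568, GLR2.7 and AT5G42250 the arrays of sal1-8 and ost1-2 overlap.

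AT1G57770 had 5.46, 5.75 and 6.08 in sal1-8 and 6.09, 5.70 and 6.08 in ost1-2 sal1-8, against 7.15 and 6.86 in ost1-2 and 7.55, 7.30 and 6.49 in wild type. It was called at -1.25 in sal1-8 (adjusted p = 0.00093, limma) and at -1.05 in ost1-2 sal1-8 (adjusted p = 0.0054), and the second call was lost without ost1-2 ABA array D (adjusted p = 0.0899). AT1G03210 had 5.25, 5.39 and 5.70 in sal1-8 and 5.04, 4.88 and 5.30 in ost1-2 sal1-8, against 5.94 and 6.39 in ost1-2 and 6.47, 6.92 and 7.22 in wild type. It was called at -0.72 in sal1-8 (adjusted p = 0.0447, limma) and at -1.09 in ost1-2 sal1-8 (adjusted p = 0.0056). The call in sal1-8 was lost without any 1 of 4 arrays, with adjusted p = 0.101 without sal1-8 ABA E, 0.121 without sal1-8 ABA B, 0.342 without ost1-2 ABA G and 0.0547 without ost1-2 ABA D, and that in ost1-2 sal1-8 without ost1-2 ABA G (0.122).

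AT1G49470 had 4.86, 5.46 and 5.34 in sal1-8 and 4.51, 4.94 and 5.71 in ost1-2 sal1-8, against 6.76 and 6.13 in ost1-2 and 5.89, 6.45 and 5.10 in wild type. It was -1.23 in sal1-8 and not called (adjusted p = 0.0526, limma) and -1.40 and called in ost1-2 sal1-8 (adjusted p = 0.0427). The call was lost without ost1-2 ABA G (0.0846), ost1-2 ABA D (0.315), ost1-2 sal1-8 ABA D (0.0999) or ost1-2 sal1-8 ABA B (0.147). Wild type arrays overlapped those of both sal1-8 genotypes for this gene after ABA.

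AT3G48640 had 4.99, 5.49 and 6.22 in sal1-8 and 5.18, 5.02 and 4.96 in ost1-2 sal1-8, against 6.41 and 6.47 in ost1-2 and 7.67, 8.96 and 7.57 in wild type. It was -0.88 and not called in sal1-8 (adjusted p = 0.110, limma) and -1.39 and called in ost1-2 sal1-8 (adjusted p = 0.0211). Without sal1-8 ABA array G it was called in sal1-8 too (-1.20, adjusted p = 0.0395), and the call in ost1-2 sal1-8 was lost without ost1-2 ABA G (0.130), ost1-2 ABA D (0.109), ost1-2 sal1-8 ABA E (0.0582) or ost1-2 sal1-8 ABA D (0.0527).

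GLR2.7 had 6.0, 6.24 and 6.51 in sal1-8 and 5.99, 5.99 and 5.70 in ost1-2 sal1-8, against 6.51 and 6.78 in ost1-2 and 7.74, 7.85 and 7.45 in wild type. It differed from ost1-2 by -0.39 in sal1-8 (95% interval -0.99 to 0.21, adjusted p = 0.343, limma) and by -0.75 in ost1-2 sal1-8 (-1.35 to -0.15, adjusted p = 0.0937), and was called in neither. AT5G42250 had 5.50, 5.50 and 6.16 in sal1-8 and 5.87, 5.34 and 4.86 in ost1-2 sal1-8, against 5.97 and 6.50 in ost1-2 and 7.33, 7.41 and 7.14 in wild type. It differed by -0.52 in sal1-8 (95% interval -1.21 to 0.18, adjusted p = 0.277, limma) and by -0.88 in ost1-2 sal1-8 (-1.58 to -0.18, adjusted p = 0.0901), and was called in the second without ost1-2 sal1-8 ABA array B (-1.14, adjusted p = 0.0395).

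AT5G44568 had 6.63, 6.93 and 8.43 in sal1-8 and 7.02, 7.56 and 6.65 in ost1-2 sal1-8, against 7.81 and 7.95 in ost1-2 and 8.80, 9.20 and 8.43 in wild type. One sal1-8 ABA array (G, 8.43) lay at the lowest wild type value, far from the other 2. The difference from ost1-2 was -0.55 in sal1-8 (95% interval -1.52 to 0.42, adjusted p = 0.411, limma) and -0.80 in ost1-2 sal1-8 (-1.78 to 0.17, adjusted p = 0.290). Without array G the first was -1.10 (adjusted p = 0.0682). Without sal1-8 ABA array B it was -0.20 and without E -0.35, neither called.

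**Figure D3:**
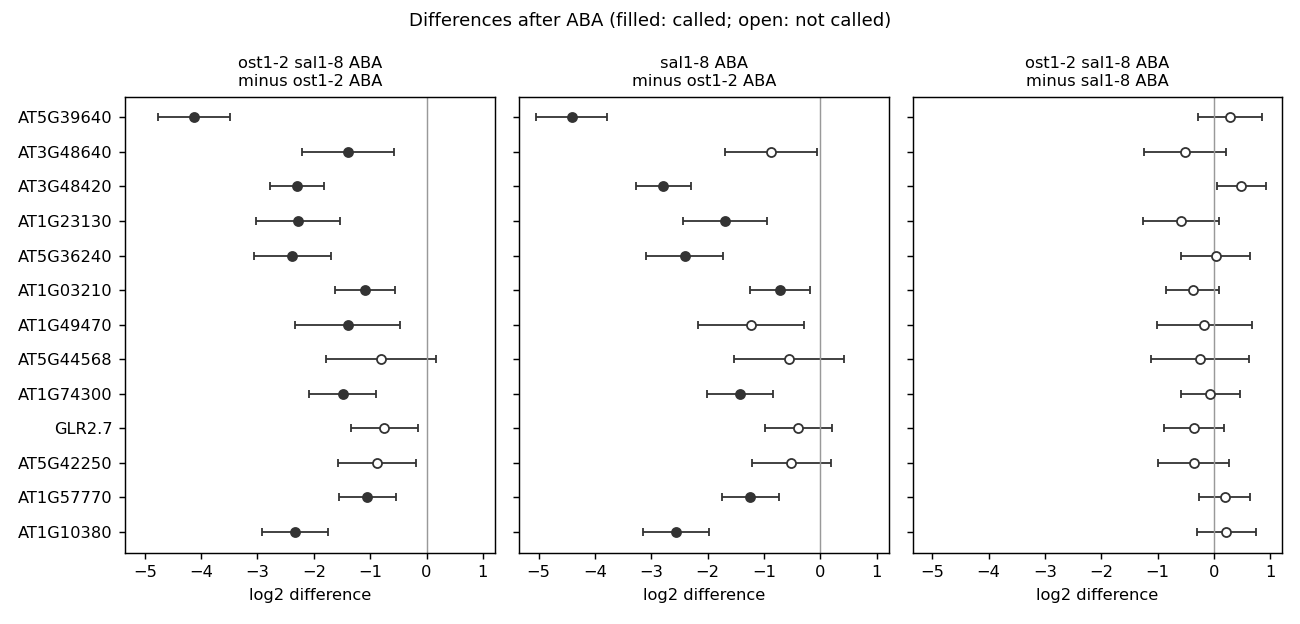
Log2 difference (x axis) of each of the 13 transcripts after ABA with its 95% interval from limma, for ost1-2 sal1-8 minus ost1-2, sal1-8 minus ost1-2 and ost1-2 sal1-8 minus sal1-8. Filled points passed the test, 10 in the first panel, 8 in the second and 0 in the third.

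The 2 genotypes with sal1-8 were then set against each other after ABA. Between ost1-2 sal1-8 ABA and sal1-8 ABA, 0 of the 13 genes were called by limma, where 5.4% of all transcripts were called in either direction. At an unadjusted p under 0.05 it was 1 of the 13, where 2893 of all transcripts tested were, beside the 744 called. That gene was CbbY (AT3G48420), which was 0.48 higher in ost1-2 sal1-8 (95% interval 0.05 to 0.92, adjusted p = 0.180). The other differences ran from -0.59 for AT1G23130 (95% interval -1.26 to 0.08) to 0.29 for AT5G39640 (-0.28 to 0.86). For GLR2.7 every ost1-2 sal1-8 array lay narrowly below every sal1-8 array, with a difference of -0.36 in the means (-0.89 to 0.18, adjusted p = 0.453). For CbbY every ost1-2 sal1-8 array lay narrowly above every sal1-8 array, the nearest at 8.61 and 8.60. How many of all transcripts separated in either way between these groups was not counted.

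Against wild type after ABA the genes were compared without a test, since the wild type ABA arrays had a part in the choice. Every sal1-8 array lay below every wild type array for 11 of the 13, where 22.8% of all transcripts did so, with AT1G49470 and AT5G44568 as the exceptions. For ost1-2 sal1-8 it was also 11 of the 13, where 15.7% of all transcripts did so, with AT1G49470 and AT1G10380 as the exceptions. The differences from wild type ABA had a median of -1.51 in sal1-8 and -1.80 in ost1-2 sal1-8 over the 13, against -0.38 in ost1-2. GLR2.7, AT5G42250 and AT5G44568, which were called in neither comparison with ost1-2, differed from wild type by -1.43, -1.57 and -1.48 in sal1-8. In ost1-2 ABA these 3 genes differed from wild type ABA by -1.04, -1.06 and -0.93. AT3G48640, AT1G03210 and AT1G23130 differed there by -1.63, -0.71 and -0.38. For these genes every ost1-2 array lay below every wild type array, and for AT1G10380 (1.58) every one lay above. How many of all transcripts separated in this way, with 2 arrays against 3, was not counted.

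In the sal1-8 genotypes the median difference between ABA and mock leaves was small beside the median distance from wild type ABA. This did not hold for every gene. AT1G49470 in sal1-8 was 0.76 higher after ABA than after mock, and -0.59 from wild type ABA. AT1G10380 in ost1-2 sal1-8 was 0.47 higher, and -0.76 from wild type ABA. GLR2.7 in sal1-8 was 0.72 higher, and -1.43 from wild type ABA. The ABA mean minus the mock mean had a median of 0.30 in sal1-8, ranging from -0.20 to 0.76, and of 0.02 in ost1-2 sal1-8, ranging from -0.36 to 0.47. In ost1-2 the range was wider, from -1.81 for AT3G48640 to 1.49 for AT1G10380, with a median of -0.26, and in wild type, where the choice of the genes limited it, from -0.55 to 0.34 with a median of -0.05. All of these responses share mock arrays with the choice of the genes and were not tested.

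AT3G48640 in ost1-2 had 6.41 and 6.47 after ABA, against 8.21 and 8.29 in mock. In the sal1-8 genotypes it was already low without ABA, at means of 5.05 in sal1-8 and 5.13 in ost1-2 sal1-8. AT1G10380 in ost1-2 had 6.71 and 6.15 after ABA, against 4.67 and 5.21 in mock, the only one of the 13 genes with every ost1-2 ABA array above every ost1-2 mock array. In sal1-8 it had 4.13, 3.64 and 3.85 after ABA, against 3.40, 3.55 and 3.54 in mock, also without overlap. Its values in wild type were 4.3, 5.17 and 5.07 after ABA, against 4.79, 5.26 and 5.51 in mock, which overlapped. Every ost1-2 ABA array lay below every ost1-2 mock array for AT5G39640, AT3G48640, CbbY, AT1G03210, AT5G44568 and GLR2.7. How many of all transcripts separated between ABA and mock in either direction, with so few arrays per group, was not counted.

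**Figure D4:**
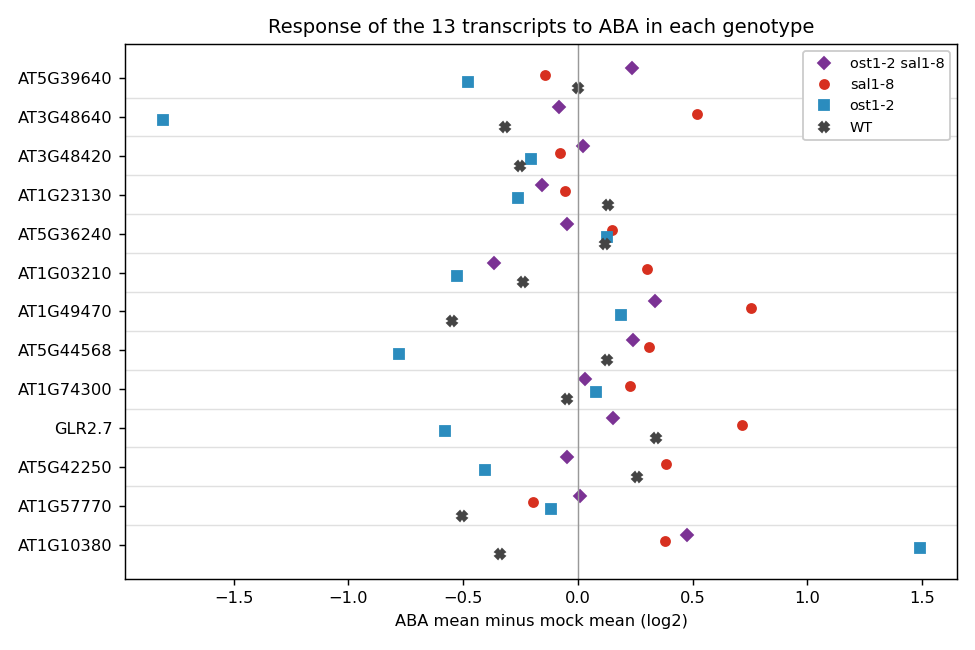
ABA mean minus mock mean on the log2 scale for each of the 13 transcripts in ost1-2 sal1-8, sal1-8, ost1-2 and wild type. The ost1-2 points of AT3G48640 (-1.81) and AT1G10380 (1.49) lie farthest from 0, while the points of the 2 sal1-8 genotypes lie between -0.36 and 0.76.

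On the chromosomes, 6 of the 13 genes were on chromosome 1, 1 on chromosome 2, 2 on chromosome 3, 0 on chromosome 4 and 4 on chromosome 5. Of all single-gene probe sets at the level of 4 or more with a place in the gene table, 26.2%, 15%, 20.3%, 15.2% and 23.3% were on chromosomes 1 to 5. The 4 genes on chromosome 5 lay between 2489 and 3650 genes from SAL1, which is on that chromosome, and none of the 13 was on chromosome 4 with OST1. The closest pair was AT3G48420 and AT3G48640, 33 genes apart.

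The genes beside them were also measured in part. Within 5 genes on either side, 40 neighbours had a single-gene probe set at the level of 4 or more, and 3 of these (7.5%) were 1.5 or more below wild type in mock leaves of both sal1-8 genotypes, where 0.405% of all such probe sets were. These neighbours were AT5G44565 (-1.71 in sal1-8 and -2.11 in ost1-2 sal1-8) and AT5G44570 (-3.08 and -3.01), on either side of AT5G44568, and AT1G10340 (-1.60 and -1.56), 4 genes from AT1G10380. AT5G44565 and AT5G44570 were higher in ost1-2 mock than in wild type mock by 1.17 each, and AT1G10340 was lower by 0.79, which kept all 3 outside the choice. AT5G39640 had 1 measured neighbour, AT5G39600, whose mock differences were 0.03 and 0.05.

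GLR2.7 stands in a row of related receptor genes. Relative to wild type, its neighbour GLR2.8 was -1.24 in mock leaves of sal1-8 and -1.77 in those of the double mutant, and GLR2.9 next to that -0.56 and 0.06. Probe sets of such near copies may share signal, so the levels of GLR2.7 and GLR2.8 are uncertain as separate measurements. After ABA, GLR2.8 was 0.06 from ost1-2 in sal1-8 and -0.49 in ost1-2 sal1-8. Elsewhere in the family GLR1.4 was 1.24 and 1.31 above wild type mock in the mock leaves of these genotypes. The family was looked up after the values of GLR2.7 had been seen and was not tested.

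**Figure D5:**
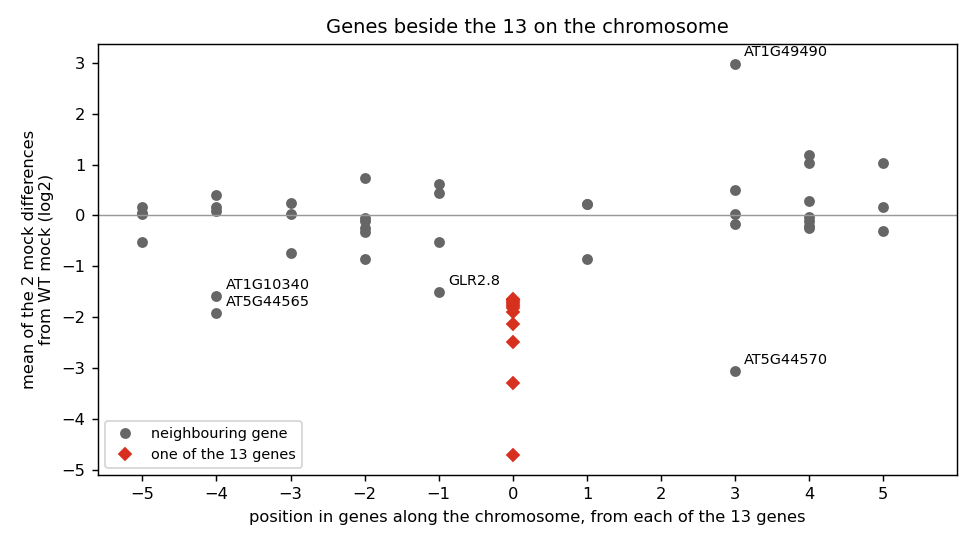
Mean of the 2 mock differences from wild type (sal1-8 and ost1-2 sal1-8, log2) of 40 neighbouring genes, by their position in genes along the chromosome from each of the 13, which stand at 0. AT5G44570, AT5G44565, AT1G10340 and GLR2.8 lie lowest and AT1G49490 highest among the neighbours.

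None of the 13 genes was on any of 21 gene lists for sulfur, hormone, stress, photosynthesis and cell type functions, 12 of which had a gene among those tested. Of the genes of sulfate assimilation and sulfur starvation, through which plants take up and reduce sulfate, 7 of 29 were tested. By limma, 0 were called in any of the 3 comparisons after ABA. At an unadjusted p under 0.05 there were 1, 0 and 1 of these genes, and 5074, 3661 and 2893 of all transcripts tested. The order is sal1-8 against ost1-2, ost1-2 sal1-8 against ost1-2, and ost1-2 sal1-8 against sal1-8. Of the ABA marker genes, 6 of 10 were tested. Of these, 3 were lower in sal1-8 ABA than in ost1-2 ABA, LTI30 (-1.87), COR47 (-1.23) and COR15B (-1.32), where 10.7% of all transcripts were called lower. In ost1-2 sal1-8 ABA 2 were lower, LTI30 (-1.83) and COR47 (-0.88), where 4.14% of all transcripts were. All 3 are genes of cold and dehydration protection. KIN1, KIN2 and COR15A were called in neither comparison, KIN1 at 0.42 and 0.47, KIN2 at -0.56 and -0.38 and COR15A at -0.40 and -0.02, in sal1-8 and in ost1-2 sal1-8. COR15B was not called in ost1-2 sal1-8 (-0.87). FMA, the single guard cell marker tested, a transcription factor that ends guard cell divisions, was -0.77 in sal1-8 ABA (adjusted p = 0.0201, limma) and -0.54 in ost1-2 sal1-8 ABA (adjusted p = 0.135) relative to ost1-2 ABA, and its part in the differences of the 13 genes was not tested.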

How the data were processed

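Leaf RNA of 22 samples in 8 groups was hybridised to Affymetrix Arabidopsis Gene 1.0 ST arrays. The deposited values are log2 intensities that the authors made with RMA (background correction, quantile normalization and median polish; oligo 1.28.0 in R 3.1.0). No column belonged to other samples. An array's letter stands for its run of sample numbers, and all arrays of a run had the same treatment. Genes were named from the platform annotation (17481 probe sets, 759 with several genes), and gene order was taken from TAIR10.1. The build behind the array is not given in the sources used here.

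A linear model with 8 group coefficients was fitted with limma 3.58.1 in R 4.3.3 to the 13780 named probe sets with the highest group means (dimmest 3.02), as many as the authors kept, since detection p-values were not used here. Scripts were tested on simulated data. The genes and lists were chosen with earlier results of these data known, and with 20 or fewer genes all are named. Neighbours and family members were looked up after values were seen. Alternatives were other probe sets, thresholds, variance models, normalizations, a replicate block and leaving out each array. Promoter motifs were not analysed here. Precision is limited by how few arrays there are.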

Additional observations from a re-analysis of the deposited data

How the results depend on the processing

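The number of genes found, 13, moved to 23 with each array centred on its median, to 61 with a threshold of 1.0 and to 3 with one of 2.0. Leaving out each mock array gave 11 to 27 genes, the highest without wild type mock F, where 9 of the 13 remained, and the fewest of the 13 to remain were 8, without wild type mock A. With a level of 5, or with AT5G36240 left out after its values were seen, 12 genes stood, of which 7 were called lower in sal1-8 ABA and 9 in ost1-2 sal1-8 ABA. Called lower in sal1-8 ABA were 7 to 9 genes without single arrays (8 with all), in ost1-2 sal1-8 ABA 7 to 10 (10 with all), and between these 2 groups 0 throughout. Of the 8 calls, 7 held in every alternative in which the gene was tested, and of the 10 calls, 6. AT5G36240, counted in both, was not among the 10000 probe sets of 1 alternative. The mean difference over the 13 genes was -1.60 in sal1-8 ABA (-1.75 to -1.5 without single arrays) and -1.71 in ost1-2 sal1-8 ABA (-1.75 to -1.65), and this second value was -1.95 with centring. No difference from ost1-2 ABA changed direction. AT1G49470 was called in sal1-8 ABA under 5 alternatives (adjusted p by limma 0.0172 to 0.0474). GLR2.7 and AT5G42250 were called in ost1-2 sal1-8 ABA with centring (0.0289 and 0.0364) and array weights (0.0373 and 0.0484), GLR2.7 also with only the groups compared (0.0318). AT1G03210 lost its call in sal1-8 ABA with every named probe set (0.0509) and with only the groups compared (0.0528).

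Whether the sample numbers pair the samples was not settled. The correlation of deviations from group means ran from -0.126 to 0.27 over 25 pairs of the same run, with 7 above 0.1 and a median of -0.00345. Over 65 pairs from different runs of the same treatment it ran from -0.303 to 0.241, with 10 above 0.1 and a median of 0.0108. With so few arrays per group, the deviations within a group depend on each other, so these correlations cannot exclude pairing. With the run as a replicate block, the counts were 8, 9 and 0, and the call of AT3G48640 in ost1-2 sal1-8 ABA was lost (adjusted p = 0.0894). Within run G, 12 of 13 genes were lower in sal1-8 ABA than in ost1-2 ABA, and within run D, 13 of 13 in ost1-2 sal1-8 ABA. Each of these sets 1 array against 1 array, and the share of all transcripts lower in the same arrays was not counted.

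Over all transcripts, 1478 were called lower in sal1-8 ABA than in ost1-2 ABA, against 2509 with centring, 761 without ost1-2 ABA G and 867 without ost1-2 ABA D. In ost1-2 sal1-8 ABA 570 were called lower, against 1521 with centring, 1017 with array weights, 377 with the block and 221 to 358 without ost1-2 ABA G, ost1-2 ABA D or ost1-2 sal1-8 ABA B. Between ost1-2 sal1-8 ABA and sal1-8 ABA 744 were called, against 427 without sal1-8 ABA E and 383 without ost1-2 sal1-8 ABA E. The cause was not tested. Promoter motifs were planned and not run.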

Other observations

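Besides the 13 genes, 10 probe sets that the annotation does not list, of 14701 such probe sets at the level of 4 or more, met the same conditions on the values, and 0 with several genes did. They have no gene name here and were not followed further. Among the neighbours of the 13, AT1G49490, 3 genes from AT1G49470, was 2.74 higher in sal1-8 leaves and 3.23 higher in leaves of the double mutant than in wild type after mock, and -0.07 in ost1-2 mock. Next to AT1G03210, AT1G03200 was -2.24 in ost1-2 mock relative to wild type mock, where sal1-8 was at -0.13 and the double mutant at -0.91.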
